A study of Homo sapiens with 10 samples.

Results

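The interferon-stimulated genes described here were 42 genes named by symbol from the general knowledge of the response, with earlier results of these data known. Each symbol matched a single gene among the 60554 genes of the count tables. They were followed in 10 RNA-seq libraries of Caco-2, an established human colon carcinoma line that forms an enterocyte-like epithelium in culture. Every library came from a clone of Caco-2 that stably carried dCas9-KRAB, a catalytically dead Cas9 fused to a transcriptional repressor, delivered by lentivirus and selected with puromycin. On top of this clone, a second lentivirus delivered an empty guide plasmid in the 5 gCtl libraries, guide g1 in 3 libraries and guide g2 in 2 libraries, both guides being directed at the long noncoding RNA LHFPL3-AS2, and the plasmid carried a hygromycin gene. All 10 libraries had received dCas9-KRAB and a guide plasmid by virus, and no uninfected culture was analysed here. An effect of delivery itself on these genes could therefore not be measured, and only the presence of a guide could be compared with its absence. Both guides were directed at the same RNA. The presence of a guide, repression of its target and any change in cell shape or polarity could therefore not be told apart.

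Interferons are secreted proteins that warn cells of viral nucleic acid. Cytosolic sensors such as RIG-I and MDA5 recognise foreign RNA and lead to the release of interferon, which binds its receptor, activates the kinases JAK1 and TYK2, and drives a complex that holds STAT2 and IRF9 into the nucleus. This complex binds a short element in the promoters of a large set of genes, whose products block viral entry, translation, RNA stability and assembly. Intestinal epithelial cells respond both to type I interferons and to the lambda interferons, and they carry a low level of these transcripts at rest.

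The element bound by the STAT2 and IRF9 complex contains 2 GAAA cores, and the motif GAAA, any 2 bases, GAAA was searched on both strands of the 300 bases around each RefSeq gene start (250 before and 50 after, build GRCh38.p14), overlapping matches included. Of the 42 genes, 33 had an entry in the promoter table, and 22 of these 33 (66.7%) held the motif at a start, against 4.38% of the 27305 genes of the table. The bases of this window that precede its first annotated exonic base are shown for the genes whose levels carry the results below. Motif matches are in capitals (TTTC, 2 bases, TTTC being the same motif on the other strand). For ISG15, annotated at chr1:1001138-1014540, these bases lie before the RefSeq start but inside the annotated gene. IFIH1 and OAS3 are shown because they were the members that rose with the guides, ISG15 because it lay at the edge of the test in the opposite direction, and IFIT1 as a standard reporter of the response that did not pass the test.
IFIH1, chr2:162318704-162318934, minus strand: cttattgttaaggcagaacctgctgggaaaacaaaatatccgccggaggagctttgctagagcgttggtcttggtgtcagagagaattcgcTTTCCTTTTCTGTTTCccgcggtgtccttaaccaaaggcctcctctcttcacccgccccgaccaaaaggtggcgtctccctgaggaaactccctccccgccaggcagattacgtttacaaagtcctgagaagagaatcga
OAS3, chr12:112938224-112938351, plus strand: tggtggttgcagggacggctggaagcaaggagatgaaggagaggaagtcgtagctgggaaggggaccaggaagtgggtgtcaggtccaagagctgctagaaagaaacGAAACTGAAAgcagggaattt
ISG15, chr1:1013247-1013422, plus strand: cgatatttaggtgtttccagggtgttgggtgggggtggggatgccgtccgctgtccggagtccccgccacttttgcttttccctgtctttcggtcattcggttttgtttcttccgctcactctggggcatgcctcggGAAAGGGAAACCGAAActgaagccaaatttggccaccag
IFIT1, chr10:89392373-89392545, plus strand: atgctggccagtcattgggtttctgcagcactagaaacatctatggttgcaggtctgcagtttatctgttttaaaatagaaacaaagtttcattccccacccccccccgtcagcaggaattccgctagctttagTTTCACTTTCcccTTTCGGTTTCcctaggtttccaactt
All 4 promoters therefore held the motif, and the genes behind them did not move in the same way. A match describes only these letters and was not read as a binding site.

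The total estimated count was 3838803 to 8730468 per library. LHFPL3-AS2 (chr7:104894628-104926645, minus strand), the RNA that the guides target, was not lower in the libraries labelled g1 and g2. In RPM (reads per 1e+06 counted), gCtl gave 1.73, 0.84, 3.73, 1.73 and 3.12. The g1 values were 3.07, 3.95 and 2.03 RPM and the g2 values 2.16 and 6.01 RPM, each from 4.39 to 44.0 estimated counts, and the 3 groups overlapped. The difference in log2(RPM + 1) was 0.47 (exact two-sided permutation test, p = 0.19, n = 5 and 5). A reduction was not detectable at these counts, and the groups below are called by their labels.

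The comparison asked whether the presence of a guide went with a raised interferon response. Few of the interferon-stimulated genes were called between the libraries labelled g1 or g2 and gCtl. Of the 42 genes, 26 passed the filter on low counts (over 3 RPM in 20% or more of all libraries) and were tested with the 11640 protein-coding genes that passed. Of these 26, 2 rose, IFIH1 and OAS3, and 0 fell, where a call needed both an adjusted p no higher than 0.05 in edgeR's quasi-likelihood test and a fold change of 1.5 or more. Over all genes tested, 19.2% were called, 8.1% higher and 11.1% lower. The 2 rises were 7.69% of the 26 genes, near the share called higher over all genes tested. The 26 genes had a median level of 6.56 RPM, against 17.5 RPM over all genes tested, and lower counts make a call less likely. The log2 fold changes of the 26 genes ran from -0.85 to 0.89 with a median of 0.18, and 16 were positive, against a median of 0.02 over all genes tested. Leaving out 1 library moved the median of the 26 genes between 0.061 (without gCtl replicate 3) and 0.288 (without gCtl replicate 2), and in limma it was 0.022, with -0.081 over all genes. None of the 26 genes separated the 5 gCtl libraries from the other 5 without overlap, whereas 15.5% of all genes tested did. The members below the filter, whose low counts can hardly separate groups, did not either. The upper limit of the 95% confidence interval lay below a 2-fold rise for 17 of the 26 genes, and for the other 9 the data left room for one.

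**Figure D1:**
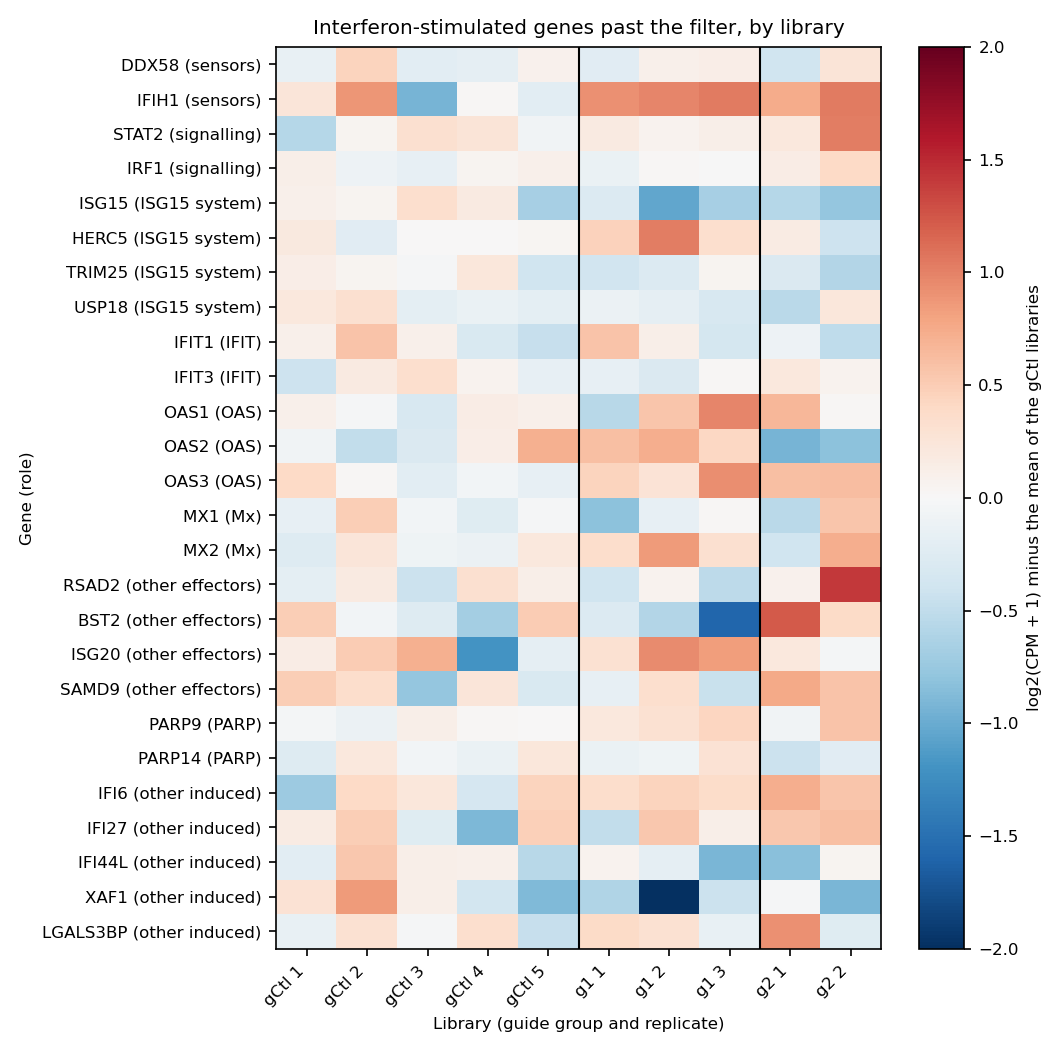
Heat map of the 26 interferon-stimulated genes past the filter (rows, with their role) in the 10 libraries (columns), coloured by log2(CPM + 1) minus the mean of the gCtl libraries. The IFIH1 row is above the gCtl mean in all 5 libraries labelled g1 or g2, OAS2 is above it in g1 and below it in g2, and most other rows mix both colours within a group.

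**Figure D2:**
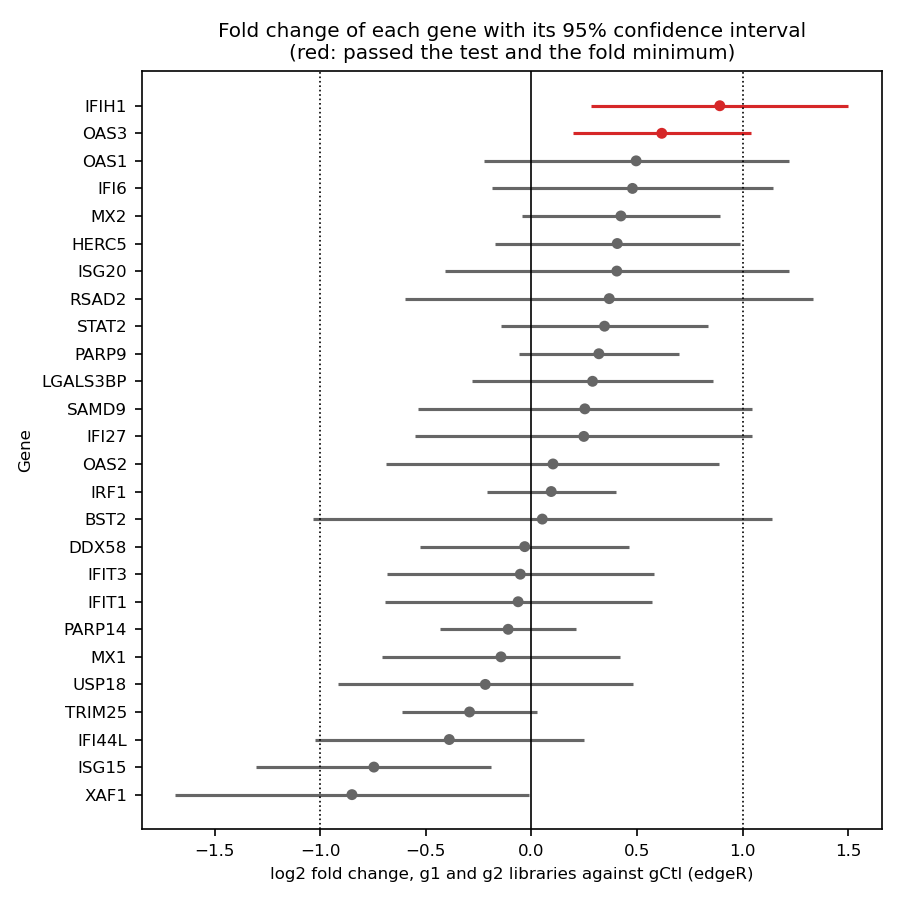
The log2 fold change of each of the 26 genes (points) with its 95% confidence interval (lines) for the libraries labelled g1 or g2 against gCtl, from edgeR, with dotted lines at a 2-fold rise or fall. IFIH1 and OAS3 (red) were called, and the intervals of ISG15 and XAF1 also lie wholly on one side of 0 without passing the adjusted threshold.

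Among the sensors, IFIH1 (chr2:162267079-162318703), which encodes MDA5, the sensor of long double-stranded RNA, had 10.8, 17.2, 4.21, 9.05 and 7.60 CPM (counts per 1e+06 after TMM scaling) in gCtl. With g1 it had 17.7, 18.6 and 19.3 CPM, and with g2 15.6 and 19.4 CPM. The 3 g1 libraries lay above every gCtl library, and the lower g2 library lay under gCtl replicate 2. The log2 fold change was 0.89 ± 0.29 (SE, adjusted p = 0.0341). Leaving out 1 library kept the log2 fold change between 0.69 and 1.21, but the call was lost without gCtl replicate 1, 3, 4 or 5, g1 replicate 2 or 3, or g2 replicate 2, with adjusted p up to 0.0756. With library totals alone the call was lost as well (0.80, adjusted p = 0.0578). DDX58, which encodes RIG-I, the sensor of RNA with a triphosphate end, had a log2 fold change of -0.031 ± 0.23 (adjusted p = 0.938). DHX58, which encodes the related regulator LGP2, had at most 1 count in any library, and DDX60, an accessory helicase, had 1 to 15 counts, so neither was tested.

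The factors that carry the interferon signal into the nucleus did not pass the test. STAT2, a subunit of the interferon-activated complex, was at 13.0, 20.6, 24.999, 23.9 and 18.9 CPM in gCtl, 22.6, 20.8 and 21.5 CPM in g1, and 23.0 and 41.2 CPM in g2. The single high value was that of g2 replicate 2, and the log2 fold change over both guides was 0.35 ± 0.23 (adjusted p = 0.291). IRF1, a factor that both induces interferon and is induced by it, was at 36.6 to 44.7 CPM in gCtl with a median of 42.7 CPM. In g1 it was at 37.3, 41.8 and 40.8 CPM and in g2 at 45.4 and 54.4 CPM, so both g2 libraries lay above all others, and the log2 fold change over both guides was 0.09 ± 0.14 (adjusted p = 0.668). IRF9, the DNA-binding subunit, was below the filter with 8, 1, 1, 2 and 2 counts in gCtl, 6, 1 and 10 in g1, and 3 and 19 in g2. IRF7, the factor that amplifies interferon production, was also below the filter with 2 to 13 counts per library.

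ISG15, a ubiquitin-like protein that is attached to other proteins during the response, lay at the edge of the test with a negative value. Its levels were 12.3, 11.96, 14.7, 13.0 and 6.82 CPM in gCtl, 9.33, 5.03 and 6.86 CPM in g1, and 7.39 and 6.24 CPM in g2. Only gCtl replicate 5 came down into the range of the other group. The log2 fold change was -0.75 ± 0.26, and the adjusted p of 0.05001 missed the threshold. It passed in DESeq2 (adjusted p = 0.0396) and without gCtl replicate 5 (0.0186), among other settings. HERC5, the ligase that attaches ISG15, had a log2 fold change of 0.41 ± 0.27 (adjusted p = 0.292). USP18, the protease that removes ISG15 and dampens receptor signalling, had -0.22 ± 0.33, and TRIM25, the ligase that activates RIG-I, had -0.29 ± 0.15, with adjusted p of 0.665 and 0.165.

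Of the IFIT proteins, which bind viral RNA and block its translation, 2 of 4 genes could be tested and neither passed. IFIT1 was at 8.94, 12.8, 8.95, 6.52 and 5.77 CPM in gCtl, 12.8, 9.12 and 6.32 CPM in g1, and 7.66 and 5.57 CPM in g2. The groups overlapped over nearly their whole range, and the log2 fold change was -0.06 (95% interval -0.69 to 0.57, adjusted p = 0.901). IFIT3, its partner, had -0.05 ± 0.30 (adjusted p = 0.918), and IFIT2 and IFIT5 were below the filter with 1 to 14 and 1 to 12 counts per library. Without the filter, IFIT2 had 0.87 ± 0.55 and IFIT5 0.65 ± 0.59 (adjusted p = 0.302 and 0.485). The IFITM proteins, which hinder the fusion of viral envelopes with the cell membrane, were all below the filter, and because the family shares sequence, reads may be divided among its members. IFITM3 had 3, 18, 5, 3 and 8 counts in gCtl, 5, 9 and 1 in g1, and 10 and 13 in g2, and IFITM1 had 2 counts in 1 library and 0 in the others.

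The oligoadenylate synthetases, which sense double-stranded RNA and answer it with a small second messenger, gave 1 gene that rose and 1 that differed between the guides. The 3 genes tested lie in a cluster on chromosome 12, with OAS1 at 112906777 to 112933222, OAS3 at 112938352 to 112973249 and OAS2 at 112978395 to 113011723. OAS3 was at 18.2, 13.9, 11.6, 13.0 and 12.1 CPM in gCtl, 18.9, 16.7 and 26.7 CPM in g1, and 21.1 and 21.4 CPM in g2. Only g1 replicate 2 came down into the gCtl range, under gCtl replicate 1. The log2 fold change was 0.62 ± 0.20 (adjusted p = 0.0343), and the call was lost without gCtl replicate 2, 3, 4 or 5 or g1 replicate 3, with adjusted p up to 0.0895 and a log2 fold change of 0.52 to 0.74. It was also lost with library totals alone (0.52, adjusted p = 0.0686), with genes of all biotypes (0.58, 0.0522) and in limma (0.47, 0.0695). OAS1 was at 5.21, 4.73, 3.68, 5.43 and 5.24 CPM in gCtl, 2.95, 7.55 and 10.5 CPM in g1, and 8.21 and 4.90 CPM in g2. The g1 libraries lay on both sides of the gCtl range and 1 g2 library lay inside it, and the log2 fold change of OAS1 was 0.50 ± 0.34 (adjusted p = 0.303).

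OAS2 was at 9.31, 6.67, 7.89, 10.9 and 16.8 CPM in gCtl, 15.5, 17.0 and 13.4 CPM in g1, and 4.65 and 5.12 CPM in g2. Both g2 libraries lay below every other library, whereas the g1 libraries lay above all gCtl libraries but replicate 5. Over both guides the log2 fold change was 0.10 ± 0.37 (adjusted p = 0.869), which joins values of opposite sign. Taken by guide, it was 0.56 ± 0.29 for g1 (adjusted p = 0.186) and -1.07 ± 0.38 for g2 (adjusted p = 0.0462). The direct test of g2 against g1 gave -1.63 ± 0.40 (adjusted p = 0.0287). OASL, a family member without synthetase activity, was below the filter with at most 6 counts per library.

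The Mx GTPases, which trap viral nucleocapsids, did not pass the test. MX1 was at 14.2, 22.8, 15.3, 13.4 and 15.7 CPM in gCtl, 8.59, 14.2 and 16.3 CPM in g1, and 10.7 and 23.8 CPM in g2. Each group spanned much of the same range, and the log2 fold change was -0.14 ± 0.27 (adjusted p = 0.728). MX2, the nuclear-envelope member that acts on retroviruses, had 0.42 ± 0.22 (adjusted p = 0.173).

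Of the other effectors, BST2, the tether that holds budding virus at the cell surface, had 7.82, 5.005, 4.21, 2.896 and 7.87 CPM in gCtl, 4.17, 3.14 and 1.08 CPM in g1, and 13.7 and 7.13 CPM in g2. Both g2 libraries were above all g1 libraries. The log2 fold change of g2 against g1 was 1.92 ± 0.55, whose adjusted p of 0.0553 missed the threshold in edgeR and passed it in DESeq2 (0.0240). Over both guides the value was 0.05 ± 0.51 (adjusted p = 0.953). RSAD2, which encodes viperin, an enzyme that makes a chain-terminating nucleotide, had 0.37 ± 0.45 (adjusted p = 0.590), with 11.1 CPM in g2 replicate 2 and 2.17 to 4.71 CPM in the other 9 libraries. ISG20, an RNA exonuclease, and SAMD9, which blocks poxvirus translation, had 0.40 ± 0.38 and 0.25 ± 0.37 (adjusted p = 0.472 and 0.656). CMPK2, SAMD9L and TRIM22 were below the filter.

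PARP9 and PARP14, members of the ADP-ribosyltransferase (PARP) family tied to interferon signalling, had log2 fold changes of 0.32 ± 0.18 and -0.11 ± 0.15 (adjusted p = 0.202 and 0.634). Among the remaining induced genes, IFI6, a membrane protein that protects the endoplasmic reticulum from flavivirus replication, was at 2.23, 6.12, 5.26, 3.26 and 6.29 CPM in gCtl, 5.89, 6.29 and 5.96 CPM in g1, and 7.94 and 6.91 CPM in g2. Its g2 libraries lay above all gCtl libraries, and the log2 fold change over both guides was 0.48 ± 0.31 (adjusted p = 0.279). LGALS3BP, a secreted glycoprotein, was at 10.1, 14.2, 11.1, 14.5 and 7.87 CPM in gCtl, 14.97, 14.2 and 10.1 CPM in g1, and 22.2 and 9.36 CPM in g2. One g2 library was the highest of all and the other was below the g1 libraries, and the log2 fold change was 0.29 ± 0.27 (adjusted p = 0.462). XAF1, a partner of the apoptosis inhibitor XIAP, had -0.85 ± 0.39 (adjusted p = 0.128), IFI44L had -0.39 ± 0.30 and IFI27 had 0.25 ± 0.38 (adjusted p = 0.366 and 0.666).

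**Figure D3:**
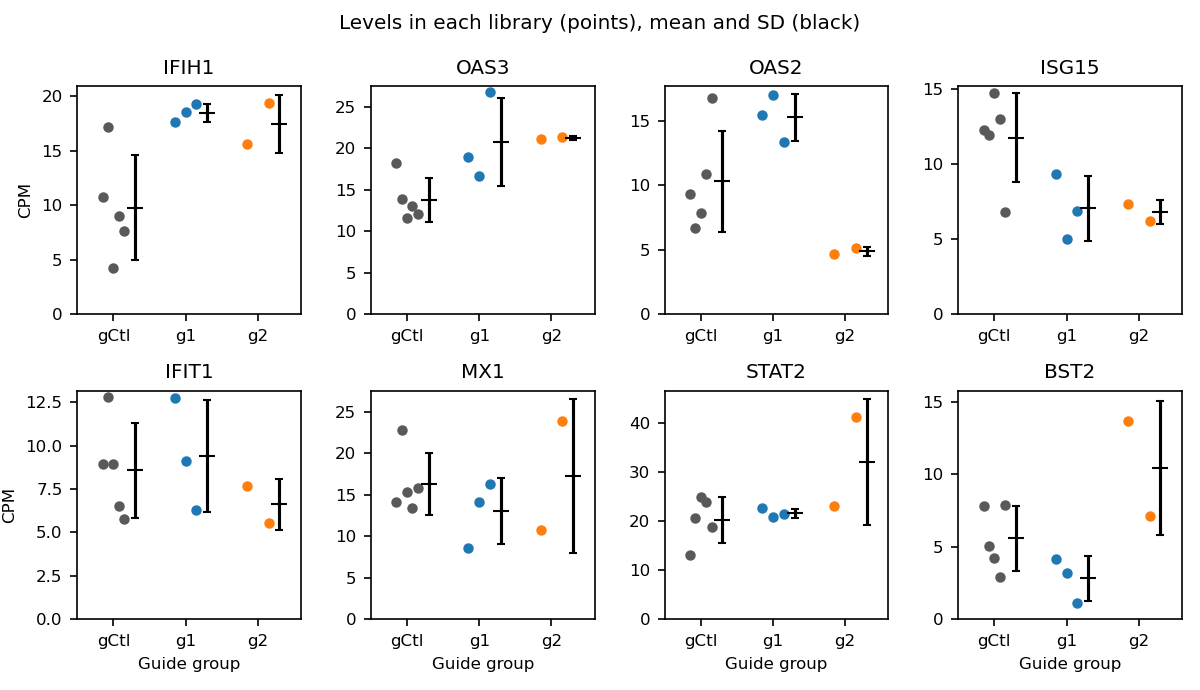
CPM of 8 interferon-stimulated genes in each library (points) by guide group, with the group mean and SD in black (5 gCtl, 3 g1 and 2 g2 libraries). The g1 and g2 points of IFIH1 and OAS3 lie above all but 1 of the gCtl points, OAS2 is at 4.65 and 5.12 CPM in g2 and at 13.4 CPM or more in g1, and the groups of IFIT1 and MX1 overlap.

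The 16 genes below the filter, which also include IFI35, IFI44 and IFITM2, had 2 to 94 counts each over all 10 libraries together, and intervals and tests at this depth cannot resolve modest differences. Fitted without a filter, edgeR called 0 of the 16 in the libraries labelled g1 or g2 against gCtl. The same fit called 2342 of all 16904 genes, each of which also had an unadjusted p below 0.05. Among the 16, 3 were below that unadjusted p, IRF7, TRIM22 and HERC6. IRF7 had a log2 fold change of -1.52 ± 0.52 (adjusted p = 0.0508), TRIM22, an antiviral ubiquitin ligase, -1.01 ± 0.46 (adjusted p = 0.148), and HERC6, a relative of HERC5, 1.30 ± 0.61 (adjusted p = 0.156). With the counts of IFITM1, IFITM2 and IFITM3 summed, the family passed the filter as 1 gene and was not called.

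Each guide was also compared with gCtl on its own, with the 5 gCtl libraries shared by both comparisons. For g1, 0 of the 26 genes were called in edgeR, 7 had an unadjusted p below 0.05, and DESeq2 and limma each called 1, IFIH1. Over all genes tested, 16.8% were called for g1, 6.33% higher and 10.5% lower. IFIH1 had a log2 fold change of 0.92 ± 0.32 with g1 (adjusted p = 0.0501), and OAS3 had 0.61 ± 0.22 (adjusted p = 0.0648). For g2, OAS2 fell and 0 genes rose, with 7 at an unadjusted p below 0.05 and 23.7% of all genes tested called, 11.5% higher and 12.2% lower. A called gene also has an unadjusted p below 0.05. At least 16.8% of all genes for g1 and 23.7% for g2 were therefore below it too, and the counts of 7 were not read as a signal. DESeq2 also called OAS2 alone for g2, and limma called OAS2 and TRIM25, both lower. IFIH1 had 0.84 ± 0.36 (adjusted p = 0.0915) and OAS3 0.63 ± 0.25 (adjusted p = 0.0756) with g2, close to the g1 values. In g2 against g1, OAS2 was the single gene called of the 26, where 4.55% of all genes tested were called, 1.81% higher and 2.74% lower. The call of OAS2 in g2 against gCtl was lost when any 1 of 8 libraries was left out (gCtl replicate 1, 4 or 5, g1 replicate 1, 2 or 3, or either g2 library), with log2 fold changes of -1.20 to -0.81 and adjusted p up to 0.155. In g2 against g1 it was lost without g1 replicate 1 or 2 or either g2 library, with log2 fold changes of -1.74 to -1.55 and adjusted p up to 0.0854. STAT2 and RSAD2 were called higher for g2 when g2 replicate 1 was left out, at 0.98 and 1.58 with adjusted p of 0.0163 and 0.0227, and RSAD2 was then also called in g2 against g1 (1.98, adjusted p = 0.0317), values that rest on g2 replicate 2 alone and assume that it varies like the other groups.

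**Figure D4:**
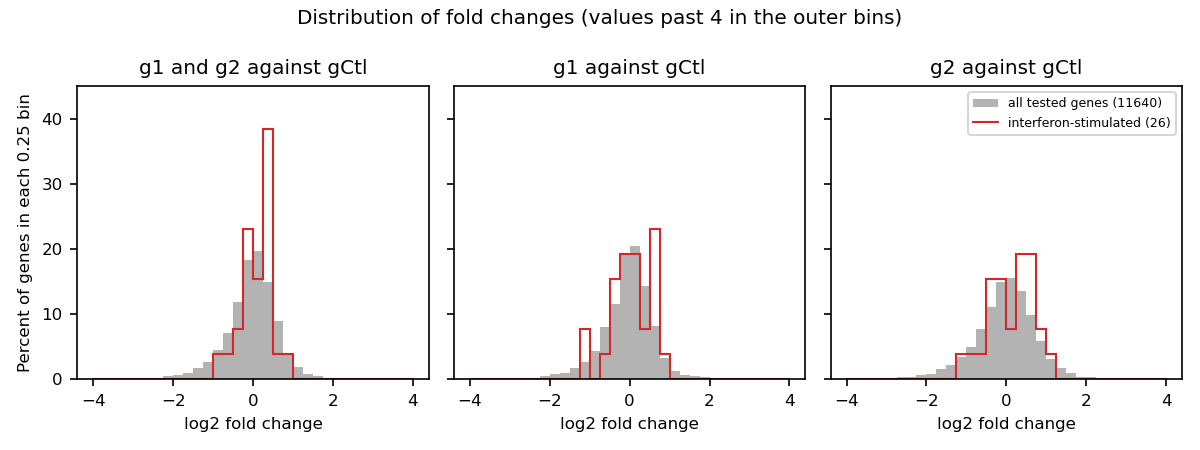
Share of genes (percent, in bins of 0.25) by log2 fold change for the 26 interferon-stimulated genes (red line) and the 11640 genes tested (grey), for both guides, g1 and g2 against gCtl. The 26 genes lie within the grey distribution, with medians of 0.18, 0.01 and 0.20 against 0.02, -0.01 and 0.02.

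The summed level of all 42 genes was 323 to 401 RPM in the gCtl libraries and 283 to 358 RPM in the libraries labelled g1 or g2. The highest sum belonged to gCtl replicate 2 and the lowest to g2 replicate 1, and each library had at least 1 count for 38 to 41 of the 42 genes. The sum is weighted to the genes with most counts, TRIM25 and PARP14, whose log2 fold changes were both negative, while the median over genes was positive. The sums were also scaled to library totals without TMM. On that scale the median log2 fold change over all genes tested was -0.07 for both guides and -0.16 for g2.

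The deposited tables give estimated counts per transcript, and for several of these genes they were assigned to transcripts that are not annotated as coding. This assignment can be unstable between libraries. DDX58-001 and DDX58-002 had 37 and 0 counts in g1 replicate 1, and 0 and 37 in g1 replicate 2. The shares below describe the assignment, and whether these transcripts were present was not tested. Of the counts of MX1, 83.3% lay on MX1-011, a retained-intron model of 388 bases, and 13.0% lay on coding transcripts. For STAT2, 71.6% lay on STAT2-008 and 24.9% on STAT2-012, both processed transcripts without an annotated reading frame, which left 6.54 of 889 counts on coding transcripts, in 2 of the 10 libraries. MX2 had 1.28% of its counts on coding transcripts, XAF1 3.27%, with 96.1% on a model annotated for nonsense-mediated decay, IFI44L 14.2% and IFI27 23.3%. The levels given above for these 6 genes were therefore mostly not assigned to their coding messages as annotated. The same holds below the filter for IRF9, with 0 of 53.1 counts on coding transcripts, and for IRF7, with 41.3%. DHX58, CMPK2 and IFI44 were also under 50% there. In contrast, IFIH1, ISG15, OAS1, OAS2, IFIT1, IFIT3, RSAD2, USP18 and IFI6 had all of their counts on coding transcripts, and OAS3 had 99.3%. A share below 50% was seen in 6 of the 26 genes (23.1%) and in 21.3% of all genes tested, and the median share was 93.6% in both. With coding transcripts alone, an alternative chosen after seeing the data, IFIH1 and OAS3 stayed called and TRIM25 was called lower (log2 fold change -0.61 ± 0.20, adjusted p = 0.0482), whereas OAS2 was no longer called in g2 against g1 (adjusted p = 0.0557).

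The rest of the pathway and the NF-kB response were read from lists of 112 further genes, of which 68 were tested. Of these 68, 12 rose and 6 fell in the libraries labelled g1 or g2 against gCtl, or 26.5% against 19.2% of all genes tested. Over all genes tested, 8.1% were called higher and 11.1% lower. The 9 tested genes of the NF-kB response gave 4 of the rises. The lists were chosen with earlier results of these data known, so their share called is not independent of the data. Transcripts of the interferons themselves were at or near 0. Of 22 ligand genes, 18 had 0 counts in all libraries, IFNB1 and IFNG included, where 3 counts over the 10 libraries would be 0.0528 RPM. The other 4 had 34 counts in all, 27 of them from IFNW1. This limit covers counting error only.

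Among 9 receptor and JAK-STAT genes tested, 2 fell and 0 rose, or 22.2% called, near the 19.2% of all genes tested. TYK2, the kinase bound to the receptors for type I and lambda interferons, was at 23.8, 23.9, 24.999, 24.98 and 19.4 CPM in gCtl, 13.7, 10.1 and 11.9 CPM in g1, and 8.48 and 3.56 CPM in g2. The groups did not overlap, and the log2 fold change was -1.29 ± 0.27 (adjusted p = 0.00412). IFNGR2, a chain of the interferon-gamma receptor, fell by 1.20 on the log2 scale (adjusted p = 0.00562). Of 12 nucleic acid sensing genes, 2 rose (16.7%, also near the 19.2% of all genes), among them TLR3, the endosomal sensor of double-stranded RNA (1.19 ± 0.30, adjusted p = 0.0115). Of 6 negative regulators tested, 0 were called in edgeR, with 1 at an unadjusted p below 0.05.

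Of 25 further interferon-stimulated genes tested, 4 rose and 4 fell, or 32% called against 19.2% of all genes tested. IFI30, a lysosomal thiol reductase of antigen processing, was at 34.6, 44.5, 37.4, 41.6 and 19.7 CPM in gCtl and at 5.40, 5.66, 2.71, 1.64 and 5.35 CPM in the libraries labelled g1 and g2. Its groups lay far apart, with a log2 fold change of -3.10 ± 0.31 (adjusted p = 3.35e-05). UBE2L6, the enzyme that passes ISG15 to HERC5, fell by 2.43 (adjusted p = 0.00577), with gCtl replicate 5 at 0.79 CPM inside the range of the other group. EPSTI1 fell by 1.15 and LY6E, a membrane protein that restricts coronavirus entry, by 1.10 (adjusted p = 0.00935 and 0.0102). The genes that rose were IFI16, a DNA sensor (2.12 ± 0.58, adjusted p = 0.0169), LAP3, an aminopeptidase (1.56 ± 0.17, adjusted p = 5.64e-05), NMI, a STAT partner (0.93 ± 0.22, adjusted p = 0.0080), and DTX3L, the ubiquitin ligase that pairs with PARP9 (0.63 ± 0.14, adjusted p = 0.00577). DTX3L passed the fold minimum by little and fell below it without g1 replicate 3 or g2 replicate 2, at values down to 0.57. IFI16 and UBE2L6 entered only 8 of the 10 fits that each left out 1 library, and were below the filter in the others. They passed the filter only through a few libraries in which they were high, which limits what their tests can show.

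Of 7 genes led by interferon-gamma, 2 rose (28.6%), and of 9 of the NF-kB response 4 did (44.4%), where 19.2% of all genes tested were called. The 2 led by interferon-gamma were GBP2 (1.81 ± 0.27) and GBP3 (1.49 ± 0.40), guanylate-binding GTPases (adjusted p = 0.000481 and 0.0150). GBP3 likewise entered only 8 of the 10 fits that each left out 1 library, with the same limit. Of 9 genes of the NF-kB response, 4 rose: the chemokines CXCL1 (2.12 ± 0.36) and CXCL3 (1.34 ± 0.20), NFKBIA, which encodes the inhibitor of NF-kB (0.60 ± 0.19), and BIRC3, an inhibitor of apoptosis (1.20 ± 0.31), with adjusted p of 0.000971, 0.000461, 0.0304 and 0.0115. The NFKBIA call was lost without gCtl replicate 2, 4 or 5, g1 replicate 3 or either g2 library, with adjusted p up to 0.0826. On coding transcripts alone, 11 of the 18 called pathway genes stayed called in the same direction, 5 higher and 6 lower. All calls lost were rises, those of LAP3, CXCL1, TLR3, GBP2, CXCL3, NFKBIA and GBP3. The edgeR adjusted p was then 0.0501 for LAP3, 0.0822 for CXCL1, 0.298 for TLR3, 0.373 for GBP2 and 0.447 for CXCL3. GBP3 took the opposite sign (log2 fold change -0.44, adjusted p = 0.805).

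**Figure D5:**
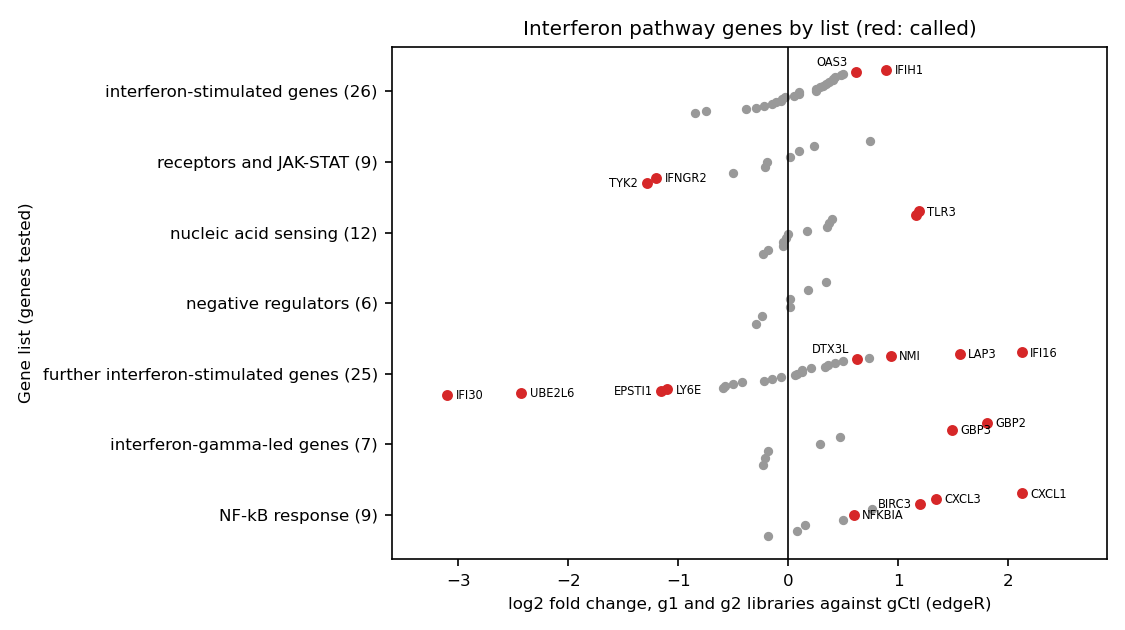
The log2 fold change of each tested gene (points, edgeR) in the libraries labelled g1 or g2 against gCtl, by gene list, with called genes in red and all but 1 of them named. The interferon-stimulated genes stay between -0.85 and 0.89, and the further lists reach from -3.10 for IFI30 to 2.12 for IFI16 and CXCL1.

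The 8 markers of intestinal epithelium were all tested and 0 were called in edgeR over both guides, with 2 at an unadjusted p below 0.05. Of all genes tested, 19.2% were called. Their log2 fold changes ran from -0.53 for KRT18 to 1.16 for KRT20, with 5 of 8 positive. For g2 alone, 2 rose, or 25% called, near the 23.7% of all genes tested. They were CDH17 (0.75, adjusted p = 0.0105) and KRT20 (1.94, adjusted p = 0.00277), and KRT20 was also higher in g2 than in g1 (1.70, adjusted p = 0.0373). The 6 leukocyte markers summed to 13.4 to 31.0 RPM per library, most of it LYZ, which epithelium also expresses. PTPRC, the general leukocyte marker, had 11 counts and CD3E 19 in all libraries. CD14 was called lower (log2 fold change -1.67, adjusted p = 0.0103), and the part of these markers in the results was not tested.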

How the data were processed

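Polyadenylated RNA was sequenced from the 3′ end in single reads (QuantSeq). The authors pseudoaligned the reads to transcripts with kallisto, given as version 42.5 in the submitters' processing notes, against GENCODE release 24 (GRCh38), and deposited estimated counts per transcript and library, neither normalized nor pooled. These values, of which at least 75.0% of those above 0 were not whole in every library, were summed per gene here and rounded. The 42 genes and all lists were chosen with earlier results of these data known.

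Protein-coding genes over 3 RPM in 20% or more of all libraries entered edgeR 4.0.16 (TMM, quasi-likelihood, Benjamini-Hochberg) on R 4.3.3, in 1 fit of the guides pooled and 1 of the 3 groups. SE is the fold change over the root of the F statistic. DESeq2 1.42.0 and limma 3.58.1 on log2(RPM + 1) were alternatives. The scripts were tested on simulated data. Coordinates are GENCODE 29. Values per library are given for genes called in any comparison and for IFIT1, ISG15, MX1, OAS1, STAT2, IRF9, IRF1, IFITM3, IFI6, BST2 and LGALS3BP; RSAD2, TYK2 and IFI30 were added after their values were seen. From the other lists, the called genes are named, and some genes are not reported here. All 14 pairs of libraries within a group differed by more than sampling noise. Nothing states that libraries came from separate cultures, so p-values measure the spread between these libraries, which may be technical. The labels give no batch.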

Additional observations from a re-analysis of the deposited data

Results flagged for a closer look

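In 52 checks of groups of 5 libraries (26 genes, the 5 gCtl libraries and the 5 labelled g1 or g2), 3 had a library set far from the others, and chance flags about 1 in 20. STAT2 was at 41.2 CPM in g2 replicate 2, with the next library at 23.0 CPM, and nearly all of its estimated counts were assigned to transcripts without an annotated reading frame. RSAD2 was at 11.1 CPM in the same library, with the next at 3.83 CPM, and its counts lay on coding transcripts. MX1 was at 22.8 CPM in gCtl replicate 2, with the next at 15.7 CPM. 

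The guides differed from each other at 4 of the 94 interferon-stimulated and pathway genes tested (4.26%), near the 4.55% of all genes tested. OAS2 differed by -1.63 ± 0.40 (log2, g2 against g1, edgeR adjusted p = 0.0287). SP100, a nuclear body protein, differed by 1.27 ± 0.26 (adjusted p = 0.0110). This was lost without g2 replicate 1, at 0.53 and adjusted p = 0.164. NMI differed by -0.90 ± 0.22 (adjusted p = 0.0309) and was lost without g1 replicate 1 or 3 or g2 replicate 2, with adjusted p up to 0.0950. TRIM14, an adaptor of RNA sensing, differed by -1.09 ± 0.22 (adjusted p = 0.00981) and was lost without g2 replicate 2, at -0.87 and adjusted p = 0.0732. The causes were not tested.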

How the results depend on the processing

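No paired analysis was possible because the labels carry no replicate numbers. The replicate numbers used here follow the order of the samples within each group, and equal numbers do not link libraries of different groups. Leaving out each library in turn gave 0 to 3 interferon-stimulated genes called for both guides, 0 to 2 for g1, 0 to 2 for g2 and 0 to 1 for g2 against g1, and 1717 to 2423, 1259 to 2261, 1498 to 3112 and 243 to 857 genes called over all tested. For both guides the call count fell to 0 without gCtl replicate 3 or 4 or g1 replicate 3. With library totals alone, 1 interferon-stimulated gene was called for both guides (ISG15, lower) and 2 for g2. Limma also called 2 for g2. For g1, 1 was called in DESeq2, with DESeq2 size factors, without a filter, in limma and with only the 2 groups compared. With only those groups, 0 were called for g2 and 0 for g2 against g1, with 159 genes over all tested. In g2 against g1, DESeq2 called 2 interferon-stimulated genes and 841 genes over all tested, the fit without a filter 2, and coding transcripts alone 0, with 300 over all tested. On coding transcripts alone GBP3 turned to -0.44 for both guides and -0.86 for g1, and SP100 to -0.032 in g2 against g1, none of them called. Library totals moved the median of all genes to -0.07 for both guides, -0.16 for g2 and -0.10 for g2 against g1, and the median of the 26 genes stayed above these for both guides (0.10) and g2 (0.02) but not for g2 against g1 (-0.15). For g2, the median of the 26 genes was 0.066 to 0.251 without each library and -0.012 in limma, where that of all genes was -0.15. The LHFPL3-AS2 difference was 0.66 with a pseudocount of 0.1 and 0.29 to 0.63 without each library, not passing the test in any. The causes were not tested.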
